A study of Mus musculus with 27 samples.

Results

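Glo1 and 6 genes beside it on mouse chromosome 17 are described here, 7 of the 52636 gene identifiers in the count tables. The members Glo1, Btbd9, Dnah8, Glp1r, Zfand3, Mdga1 and Abcg1 were chosen by symbol, for their place around Glo1 in and beside a segment known to vary in copy number, and with the genotype difference of several of them in these same libraries already seen. Their genotype differences are therefore given as levels, ratios and log2 fold changes with standard errors (SE), without a test. The contrasts between brain regions and between sexes, and the genotype contrast of genes that are not members, did not enter the choice and carry adjusted p-values.

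The libraries come from frontal cortex and striatum of adult mice of about 2.5 months, both sexes, all labelled as 129S1 background. Igf2enh-/- mice are homozygous for a 4.9 kb deletion between H19 and Igf2 on chromosome 7, made by gene targeting in embryonic stem cells. The drug selection cassette was later removed with CRE expressed from Hprt, and the allele keeps a loxP sequence in place of the segment. Wild-type mice carry the intact segment. Frontal cortex was sampled in 6 wild-type libraries (numbers 2, 4 and 6 from females, 8, 10 and 12 from males) and 6 Igf2enh-/- libraries (1, 3 and 5 from females, 7, 9 and 11 from males), and striatum in 7 wild-type libraries (14, 16 and 18 from females, 20, 22, 24 and 26 from males) and 8 Igf2enh-/- libraries (13, 15, 17 and 25 from females, 19, 21, 23 and 27 from males). The sources do not say whether the Igf2enh-/- mice descend from more than 1 targeted clone, whether wild-type mice were littermates, or which frontal cortex and striatal libraries share a mouse, so the p-values measure the spread between libraries. The deleted segment lies between genes and outside every member, so no count checks the genotype labels directly, and genomic copy number was not measured.

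Glo1 encodes glyoxalase I, the first enzyme of the pathway that detoxifies methylglyoxal, a reactive by-product of glycolysis; it works on the adduct of methylglyoxal with glutathione, and the next enzyme, encoded by Hagh, releases D-lactate and returns the glutathione. Some inbred mouse strains carry a tandem duplication that holds Glo1, Dnah8, Glp1r and part of Btbd9, and Glo1 level has been studied in mice for its link to anxiety-like behaviour. Btbd9 encodes a BTB domain protein known from human genetics of restless legs syndrome, Dnah8 an axonemal dynein heavy chain of motile cilia and sperm tails, and Glp1r the receptor for glucagon-like peptide 1. Zfand3 encodes an AN1-type zinc finger protein, Mdga1 a membrane-anchored immunoglobulin domain protein that binds neuroligins, and Abcg1 a sterol transporter.

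In GRCm38 the 7 genes follow each other along chromosome 17 as Mdga1 (chr17:29827956-29888583, minus strand), Zfand3 (chr17:30005039-30210823, plus), Btbd9 (chr17:30215524-30582621, minus), Glo1 (chr17:30592861-30612659, minus), Dnah8 (chr17:30626935-30875762, plus), Glp1r (chr17:30901867-30936510, plus) and Abcg1 (chr17:31057694-31117984, plus). Zfand3 ends 4.70 kb before Btbd9, Btbd9 10.2 kb before Glo1, Glo1 14.3 kb before Dnah8 and Dnah8 26.1 kb before Glp1r. Mdga1 lies 116 kb before Zfand3, and Abcg1 121 kb after Glp1r with Umodl1 between them. Glo1 and Dnah8 are read in opposite directions from starts on either side of the long noncoding RNA 1700097N02Rik, and the annotated pseudogene Gm8373 lies within the span of Glo1.

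The promoters of the 3 members with the lowest Igf2enh-/- to wild-type ratios are shown because they lie at the starts of those transcripts. Each is the 250 bases upstream of the transcript start used in the RefSeq promoter table, 5′ to 3′ in the direction of the gene, on GRCm38.p6 (Glo1 chr17:30612660-30612909, minus strand; Dnah8 chr17:30626686-30626935, plus strand; Glp1r chr17:30901617-30901866, plus strand). For Glo1 and Glp1r the window ends at the base next to the gene, and for Dnah8 its last base is the first base of the gene as given above. Capitals mark CCAAT and GGGCGG on either strand.
Glo1: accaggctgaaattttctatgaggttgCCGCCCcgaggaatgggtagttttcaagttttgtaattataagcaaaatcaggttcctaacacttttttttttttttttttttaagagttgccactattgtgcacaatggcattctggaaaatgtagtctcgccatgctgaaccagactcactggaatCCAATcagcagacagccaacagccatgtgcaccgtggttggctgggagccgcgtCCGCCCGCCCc
Dnah8: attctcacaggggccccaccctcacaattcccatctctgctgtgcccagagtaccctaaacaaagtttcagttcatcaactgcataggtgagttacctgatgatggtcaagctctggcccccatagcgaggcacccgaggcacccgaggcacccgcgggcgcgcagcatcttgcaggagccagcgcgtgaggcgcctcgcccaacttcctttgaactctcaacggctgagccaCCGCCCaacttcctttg
Glp1r: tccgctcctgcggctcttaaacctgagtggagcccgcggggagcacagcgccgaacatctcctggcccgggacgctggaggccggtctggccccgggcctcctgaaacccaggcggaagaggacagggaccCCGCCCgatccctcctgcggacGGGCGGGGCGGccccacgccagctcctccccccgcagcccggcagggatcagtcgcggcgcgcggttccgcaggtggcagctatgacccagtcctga
The GC content was 46.4% in Glo1, 59.2% in Dnah8 and 73.2% in Glp1r, with 8, 13 and 26 CpG dinucleotides. Among the 3, CCAAT was present in the Glo1 promoter alone, 65 to 61 bases before the start, on the plus strand of the gene. GGGCGG occurred 3 times in Glo1, all on the opposite strand and with the pair closest to the start overlapping, once in Dnah8 on the opposite strand, and 3 times in Glp1r, where the pair on the gene's strand shared a base. The TATA box letters TATAAA, the E-box CACGTG and the core letters of an antioxidant response element, TGACNNNGC, were searched on both strands and not found in the 3 windows. Of 32851 promoters of that length, 33.8% held CCAAT, 32.7% GGGCGG, 12.4% TATAAA, 10.2% TGACNNNGC and 6.0% CACGTG. The table listed 5 of the 7 members, without Btbd9 and Abcg1.

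Library totals ran from 23686945 to 33926904 counts. Values are in CPM, read counts relative to the size of the library, with library sizes scaled by the trimmed mean of M-values (TMM), whose factors ran from 0.980 to 1.03. The labelled tissues carried their markers. The 6 markers of cortical projection neurons summed to 1996–2233 CPM in frontal cortex, and to 20.3–1029 CPM in wild-type and 137–762 CPM in Igf2enh-/- striatum. The 7 of medium spiny neurons summed to 136–216 CPM in frontal cortex, and to 3088–8501 and 4368–8430 CPM in wild-type and Igf2enh-/- striatum. Choroid plexus markers (7 genes) summed to 3312 CPM in Igf2enh-/- striatal library 15, with Ttr the most abundant of that group, against at most 147 CPM in the other striatal libraries. Sums for oligodendrocyte markers (4) were 750–1586 CPM in frontal cortex and 3624–8022 in striatum, and for microglia (4) 197–219 and 203–258. Those for astrocyte markers (4) were 1084–1368 and 980–1345, for endothelium (3) 115–159 and 118–153 and for meningeal fibroblasts (5) 46.4–96.9 and 16.2–72.8. The neuronal sums thus varied widely among striatal libraries of both genotypes, and the part of this in the values of the members was not tested. In bulk tissue, fewer cells of a type and less RNA per cell cannot be told apart.

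Glo1 was lower in every Igf2enh-/- library than in every wild-type library of the same region. In frontal cortex, wild-type libraries 2, 4, 6, 8, 10 and 12 had 85.2, 109, 106, 80.5, 86.4 and 85.1 CPM, a mean of 92.1 ± 12.2 (SD, n = 6). The Igf2enh-/- libraries had 39.8 CPM at the lowest, 41.1 at the median and 43.2 at the highest, a mean of 41.2 ± 1.25 (SD, n = 6). The lowest wild-type library (8) thus lay far above the highest Igf2enh-/- library (5), by more than the whole range of either group. In striatum, wild-type libraries 14, 16, 18, 20, 22, 24 and 26 had 82.0, 100, 106, 86.1, 84.6, 78.1 and 100 CPM, a mean of 90.9 ± 10.7 (SD, n = 7). The Igf2enh-/- libraries ran from 37.1 through a median of 39.7 to 41.0 CPM, a mean of 39.4 ± 1.19 (SD, n = 8). The wild-type mean was 2.24 times the Igf2enh-/- mean in frontal cortex and 2.31 times in striatum, and the fitted log2 fold changes were -1.16 (SE 0.0614) and -1.21 (SE 0.0580). Both come from the contrast that the genes were chosen on and are given without a test. Leaving out each library in turn moved them only between -1.19 and -1.12 and between -1.24 and -1.17.

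**Figure D1:**
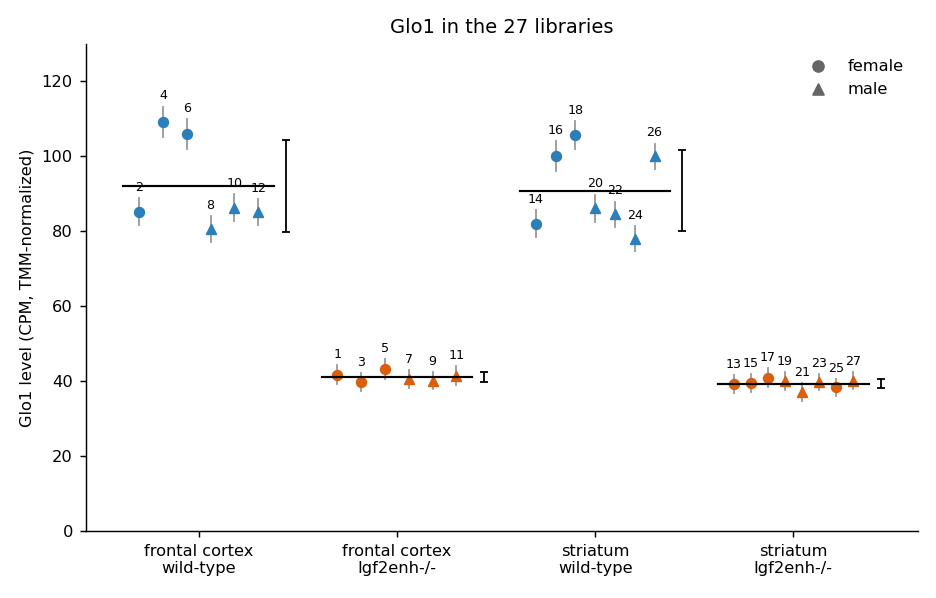
Glo1 level of each of the 27 libraries in CPM (TMM-normalized), by region and genotype, with circles for females, triangles for males and bars for group mean and SD. The Igf2enh-/- libraries lie between 37.1 and 43.2 CPM in both regions, and the wild-type libraries between 78.1 and 109 CPM with a gap inside the group.

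The wild-type libraries were put in order of Glo1. Separate levels among them were looked for by plan when these genes were taken up, and some step is always the widest. The steps are therefore described without a test. In frontal cortex, division by the Igf2enh-/- median of 41.1 CPM put wild-type libraries 8, 12, 2 and 10 at ratios of 1.96, 2.07, 2.08 and 2.10, and libraries 6 and 4 at 2.58 and 2.66. The step between libraries 10 and 6 was 0.477 of that median, or 19.6 CPM, against 0.111 for the next widest step, and the 95% counting intervals of the neighbours on either side of it did not overlap. The SD of the Igf2enh-/- libraries over their own median was 0.0306. In striatum, libraries 24, 14, 22 and 20 had ratios of 1.97, 2.07, 2.13 and 2.17 to the Igf2enh-/- median, and libraries 26, 16 and 18 had 2.52, 2.52 and 2.66. The step between libraries 20 and 26 was 0.350, or 13.9 CPM, against 0.142 for the next. Within either stretch of this order, adjacent libraries had overlapping counting intervals, so the order of adjacent libraries is not resolved. The ends of the lower stretch, libraries 24 (74.9–81.3 CPM) and 20 (82.6–89.8 CPM), did not overlap. These intervals cover counting error only.

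The size of the step in frontal cortex depended little on the scaling, at 0.485 by total count, 0.474 by DESeq2 size factors and 0.467 over the summed counts of the other chromosome 17 genes, between the same libraries 10 and 6. In striatum it was 0.301 by total count and 0.361 by size factors, but over the other chromosome 17 genes it fell to 0.217, with a next widest step of 0.211. On that scale no single step stood out. In striatum both sexes lay above the widest step, with library 26 male and libraries 16 and 18 female, while libraries 4 and 6 in frontal cortex are both female. The sex term of the fit for Glo1 was -0.15 in frontal cortex (SE 0.0609, male over female, adjusted p = 0.6253 by the quasi-likelihood test of edgeR) and -0.07 in striatum (SE 0.0578, adjusted p = 0.590 in edgeR). Of all genes tested for sex, 0.0431% were called in frontal cortex and 0.0432% in striatum, and 0 of the 5 members tested by edgeR were among them, with an unadjusted p under 0.05 for Glo1 in frontal cortex.

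The spread of Glo1 differed by genotype as a description. The coefficient of variation was 13.3% in wild-type frontal cortex, at the 86.1th percentile of 13936 genes, and 3.05% in Igf2enh-/- frontal cortex, at the 7.05th percentile. In striatum it was 11.8% among wild-type libraries, at the 57.8th percentile of 13875 genes, and 3.02% among Igf2enh-/- libraries, at the 3.86th. Among Igf2enh-/- libraries Glo1 was thus one of the less variable genes in both regions, counted over genes of all levels. Zfand3 was low there too, at the 1.44th percentile in frontal cortex and the 6.47th in striatum. Btbd9 was at the 37.5th and 7.53th, Abcg1 at the 21.7th and 38.9th, and Mdga1 at the 81.4th and 94.6th. The corresponding median of all genes ran from 6.14% to 10.2% over the 4 groups.

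Btbd9, which lies 10.2 kb from Glo1, was lower in Igf2enh-/- libraries by less than Glo1. In frontal cortex the wild-type libraries ran from 93.8 through a median of 97.9 to 109 CPM and the Igf2enh-/- libraries from 77.7 through 83.2 to 91.2 CPM, with means of 100.02 ± 5.88 (SD, n = 6) and 83.9 ± 4.86 (SD, n = 6). The groups did not overlap. In striatum they did, since wild-type library 22 at 58.1 CPM lay under Igf2enh-/- libraries 21 and 19 at 58.8 and 58.6 CPM, although the other 6 wild-type libraries had 64.9 CPM or more. The striatal means were 69.2 ± 6.64 (SD, n = 7) and 56.1 ± 2.02 (SD, n = 8). The log2 fold changes were -0.26 (SE 0.0415) and -0.30 (SE 0.0520), without a test. The highest wild-type values of Btbd9 fell in the libraries that were also highest for Glo1, with 105 and 109 CPM in frontal cortex libraries 4 and 6 and 74.1, 74.5 and 77.3 CPM in striatal libraries 16, 18 and 26.

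Dnah8, the neighbour on the other side of Glo1, had few counts, from 6 to 76 in a library, and did not reach 1 CPM in most Igf2enh-/- libraries, so that it was fitted among all genes with a count. In frontal cortex the wild-type libraries had 1.39 CPM at the lowest, 1.77 at the median and 2.08 at the highest, and the Igf2enh-/- libraries 0.362, 0.685 and 1.198. All Igf2enh-/- libraries lay under all wild-type libraries, the closest being Igf2enh-/- library 1 with 30 counts. In striatum the wild-type libraries had 1.21, 1.78 and 2.24 CPM and the Igf2enh-/- libraries 0.242, 0.524 and 0.663, again without overlap. That fit gave log2 fold changes of -1.32 (SE 0.189) and -1.77 (SE 0.205). Wild-type libraries 16 and 26 had the highest striatal values, at 2.24 and 2.22 CPM, followed by libraries 18 and 22 at 1.80 and 1.78 CPM.

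Markers of motile ciliated cells, in which dynein heavy chains are used, were compared with Dnah8. The 7 ependymal and cilia genes summed to 12.0–18.2 CPM in wild-type and 13.3–15.9 CPM in Igf2enh-/- frontal cortex, and to 32.5–58.1 and 31.4–66.5 CPM in striatum, so the groups overlapped in both regions where those of Dnah8 did not. Tmem212, an ependymal marker, had no count in any frontal cortex library, which allows up to 3 counts in each, and Ccdc153 had at most 2. Dnah6, another axonemal dynein heavy chain, had means of 10.7 ± 2.06 (SD, n = 6) and 9.72 ± 1.31 CPM (SD, n = 6) in wild-type and Igf2enh-/- frontal cortex and 30.0 ± 6.71 (SD, n = 7) and 35.1 ± 9.89 CPM (SD, n = 8) in striatum. Dnah6 and the summed list lay higher in every striatal library than in every frontal cortex library, while Dnah8 had wild-type means of 1.74 ± 0.247 (SD, n = 6) and 1.70 ± 0.424 CPM (SD, n = 7).

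Glp1r was close to the limit of detection. In frontal cortex the wild-type libraries had 5 to 14 counts, or 0.193 to 0.518 CPM with a median of 0.422, and the Igf2enh-/- libraries 0 to 10 counts, or 0 to 0.399 CPM with a median of 0.0980. Igf2enh-/- library 7 had no count, which allows up to 3 counts, and library 1 had the highest value of its group. The groups overlapped, with 4 of 6 Igf2enh-/- libraries under the lowest wild-type library. The log2 fold change in the fit of all genes with a count was -1.46 (SE 0.401). As the log2 ratio of group means it was -1.49, and it moved to -2.12 without library 1 and -1.22 without library 7. Library 1, the highest Igf2enh-/- library of frontal cortex for both Dnah8 and Glp1r, also had the highest Zic1 of that region (38.8 CPM, against at most 22.1 CPM in wild-type libraries) and the lowest oligodendrocyte sum (750 CPM), whose part in these values was not tested.

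In striatum Glp1r ran from 0.237 through a median of 0.633 to 2.54 CPM in wild-type libraries and from 0.232 through 0.416 to 1.90 CPM in Igf2enh-/- libraries, and the groups overlapped over nearly the whole range. The log2 fold change was -0.68 (SE 0.432). The highest library of each genotype stood apart, wild-type library 26 at 2.54 CPM (87 counts) with the next at 0.990, and Igf2enh-/- library 19 at 1.90 CPM (51 counts) with the next at 0.539. The log2 ratio of means was -0.65 with all libraries, -1.22 without library 19, -0.14 without library 26 and -0.71 without both.

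Libraries 19 and 26 also stood apart in genes of nearby forebrain tissue. Zic1, a zinc finger transcription factor gene known from the septum, had 122 and 91.0 CPM in them, against at most 30.1 CPM in the other 13 striatal libraries. Trpc4, a cation channel gene known from the lateral septum, had 26.4 and 22.0 CPM against 7.52–11.5 CPM. Glp1r is known from the septum too. Both genes were chosen after their values were seen, and the part of the dissected tissue in the level of Glp1r was not tested.

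**Figure D2:**
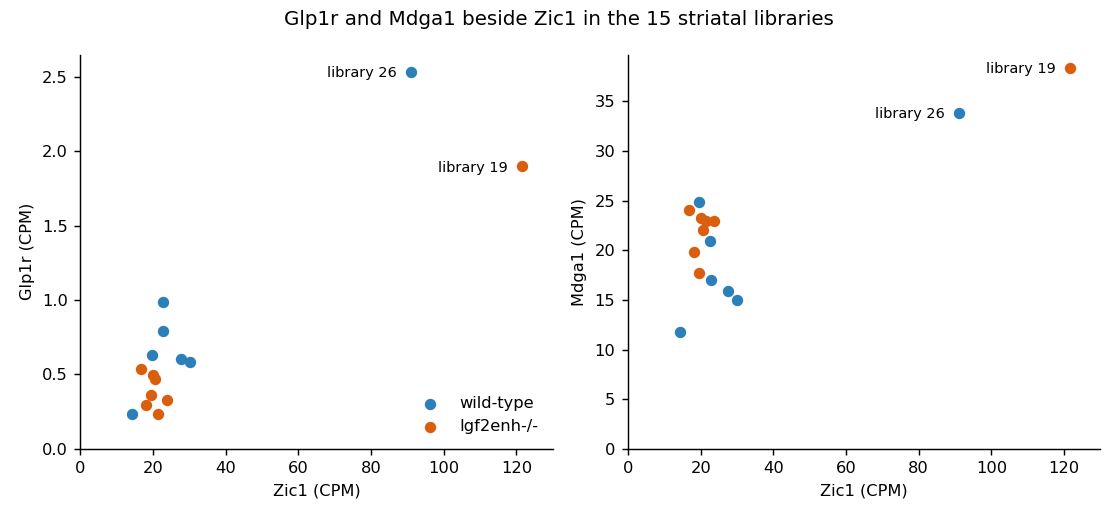
Levels of Glp1r and Mdga1 against Zic1, each in CPM, in the 15 striatal libraries, with colours for genotype. Libraries 19 and 26 lie apart at 122 and 91.0 CPM of Zic1 and hold the highest values of both members.

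The relatives and ligand of the GLP-1 receptor set a scale for these levels. Of the 10 genes listed, Adcyap1r1, the receptor for PACAP, was the most abundant, with 192 ± 8.81 CPM (SD, n = 6) in wild-type frontal cortex and 169 ± 25.1 CPM (SD, n = 7) in wild-type striatum. Vipr1 had 46.3 ± 2.41 (SD, n = 6) and 33.0 ± 7.32 CPM (SD, n = 7), and Gipr, the incretin receptor closest in role to Glp1r, 2.36 ± 0.216 (SD, n = 6) and 3.39 ± 0.461 CPM (SD, n = 7). Gcg, which encodes the precursor of glucagon and GLP-1, never exceeded 5 counts, and Gcgr and Ghrhr at most 7 and 2 counts. Dpp4, whose product cleaves GLP-1, had 5.62 ± 0.785 CPM (SD, n = 6) in wild-type frontal cortex and 0.981 ± 0.610 CPM (SD, n = 7) in wild-type striatum.

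In the 3 outer genes the genotype difference was smaller or ran the other way. Zfand3 in frontal cortex was slightly higher in every Igf2enh-/- library (72.7, 73.9 and 76.3 CPM at the lowest, median and highest) than in every wild-type library (66.1, 69.7 and 71.6 CPM). Its log2 fold change was 0.10 (SE 0.0297). In striatum the ranges were 64.2–71.2 CPM in wild-type and 64.3–70.4 CPM in Igf2enh-/- libraries, with a log2 fold change of 0.01 (SE 0.0303), so the separation was not seen there.

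Mdga1 was variable in all groups. It ran from 15.3 through 16.8 to 24.5 CPM in wild-type and from 19.2 through 24.0 to 27.6 CPM in Igf2enh-/- frontal cortex, with overlapping groups and a log2 fold change of 0.38 (SE 0.113). In striatum the ranges were 11.8–33.8 and 17.7–38.4 CPM with medians of 17.0 and 23.0, and the log2 fold change was 0.27 (SE 0.207). The highest values were again those of libraries 26 and 19, and the fitted log2 fold change was 0.13 without library 19 and 0.45 without library 26. The log2 ratio of means was 0.26 with all libraries and 0.31 without both.

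Abcg1 is the outermost member on the far side. Wild-type libraries had 64.2–71.2 CPM and Igf2enh-/- libraries 60.2–68.4 CPM in frontal cortex, with 81.6–99.3 and 82.8–103 CPM in striatum. The log2 fold changes were -0.06 (SE 0.0379) and 0.05 (SE 0.0512), with opposite signs in the 2 regions and overlapping groups in both.

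**Figure D3:**
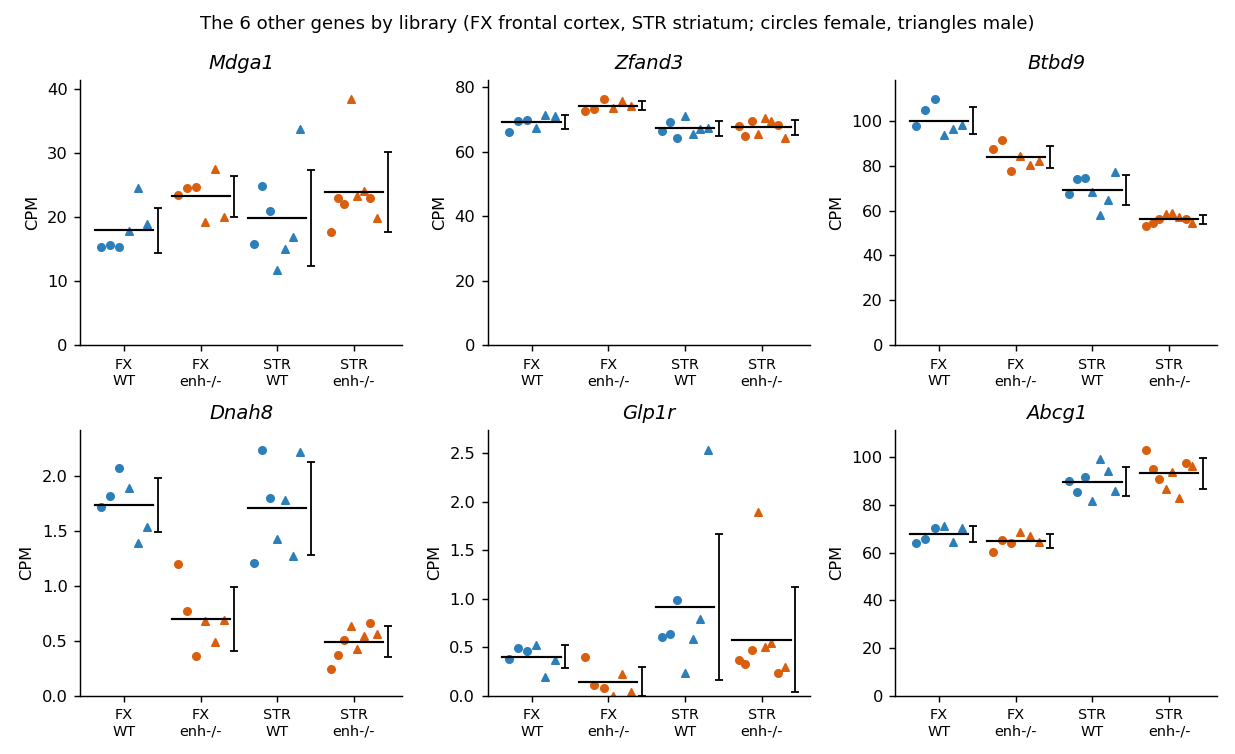
Levels of Btbd9, Dnah8, Glp1r, Zfand3, Mdga1 and Abcg1 in each library in CPM, a panel per gene with its own axis from 0, with circles for females and triangles for males. Btbd9 and Dnah8 separate by genotype in frontal cortex and Dnah8 in striatum, while Mdga1 and Abcg1 overlap in both regions.

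Read against the background, separation of the groups was uncommon. All Igf2enh-/- libraries lay under all wild-type libraries for 0.631% of the genes at 1 CPM or more in frontal cortex and for 0.130% in striatum, and above them for 0.660% and 0.101%. Glo1 was in the lower set in both regions and Btbd9 in frontal cortex, and Zfand3 was in the higher set in frontal cortex. Among genes with a count but under 1 CPM in some library, to which Dnah8 belongs, the lower set held 0.0680% in frontal cortex and 0.0198% in striatum. Since these contrasts chose the members, nothing is read from the comparison. The share of genes called at an adjusted p under 0.05 for genotype, among those at 1 CPM or more, was 0.380% in frontal cortex (53 of 13936 genes, 18 higher and 35 lower) and 0.0360% in striatum (5 of 13875, all lower).

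Set side by side for each wild-type library, the members differed in how far they stood above the Igf2enh-/- median. Ratios ran from 1.96 to 2.66 for Glo1 in frontal cortex and from 1.97 to 2.66 in striatum, and from 2.03 to 3.03 and 2.31 to 4.27 for Dnah8. Those of Btbd9 ran from 1.13 to 1.31 and 1.03 to 1.38. For Zfand3 the ratios stayed between 0.894 and 1.04 over both regions, and for Abcg1 between 0.864 and 1.10. Along the chromosome, the genes with wild-type ratios above 1 in every library of both regions were therefore the adjoining Btbd9, Glo1 and Dnah8, with Glp1r in frontal cortex but not in striatum, where library 20 had 0.570. Across the 27 libraries, with the mean of each region taken off, Pearson's r of log2 level with Glo1 was 0.93 for Dnah8, 0.89 for Btbd9 and 0.48 for Glp1r, against -0.43 for Zfand3, -0.41 for Mdga1 and -0.06 for Abcg1. With the mean of each region and genotype taken off it was 0.61 for Btbd9, 0.41 for Dnah8, 0.30 for Glp1r, 0.25 for Mdga1, -0.02 for Zfand3 and -0.22 for Abcg1. The values with only the region mean taken off hold the genotype difference that the members were chosen on. Libraries also share their total count between genes, and regions may share mice, so both sets of values are descriptions.

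**Figure D4:**
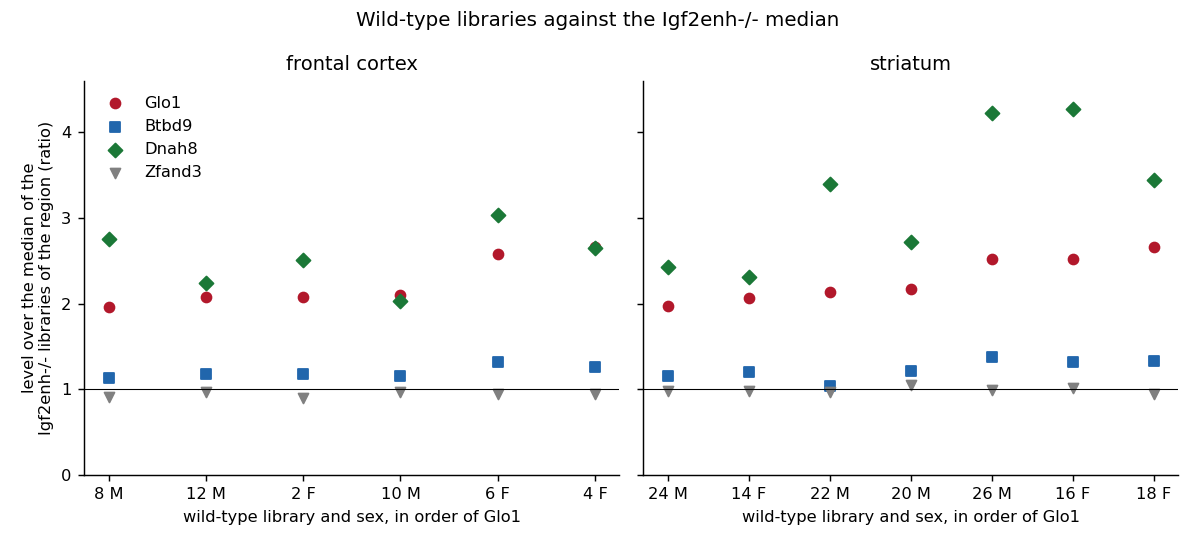
Level of Glo1, Btbd9, Dnah8 and Zfand3 in each wild-type library as a ratio to the Igf2enh-/- median of its region, with libraries in the order of Glo1 and sex given on the axis. Glo1 steps from 2.10 to 2.58 in frontal cortex and from 2.17 to 2.52 in striatum, and Zfand3 stays between 0.894 and 1.04.

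Compared per kilobase of merged exon, Glo1 had the highest wild-type level of the 7 genes in both regions, with 47.6 ± 6.32 CPM per kb (SD, n = 6) in frontal cortex and 47.0 ± 5.55 (SD, n = 7) in striatum. Zfand3 came next with 25.8 ± 0.794 and 25.1 ± 0.856 CPM per kb, then Abcg1 with 16.7 ± 0.817 and 22.1 ± 1.48 and Btbd9 with 9.97 ± 0.586 and 6.89 ± 0.662. Mdga1 had 1.91 ± 0.376 and 2.12 ± 0.795, Glp1r 0.267 ± 0.0788 and 0.604 ± 0.499, and Dnah8 0.119 ± 0.0168 and 0.116 ± 0.0289. The ranges of neighbours in this order did not overlap for the first 5 genes in wild-type frontal cortex. Those of Glp1r and Dnah8 did, and in wild-type striatum those of Zfand3 and Abcg1 and those of Mdga1 and Glp1r overlapped. In Igf2enh-/- frontal cortex the order at the top was changed, with Zfand3 at 27.7 ± 0.536 above Glo1 at 21.3 ± 0.648 CPM per kb (SD, n = 6 each). In Igf2enh-/- striatum Zfand3 (25.2 ± 0.867) and Abcg1 (22.9 ± 1.58) both had higher means than Glo1 (20.4 ± 0.616).

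Region was a contrast the choice of genes had not used, and in it the members parted by gene. Among genes at 1 CPM or more in all 27 libraries, 39.4% were called higher and 38.3% lower in striatum than in frontal cortex, so that a call is the common outcome. Btbd9 was lower in striatum by a log2 difference of -0.55 (SE 0.0353, adjusted p = 1.32e-13 in edgeR), and Abcg1 was higher by 0.47 (SE 0.0355, adjusted p = 4.48e-12 in edgeR). Zfand3 was lower with a difference of -0.09 (SE 0.0216, adjusted p = 0.000413 in edgeR). In wild-type libraries alone the difference for Zfand3 was -0.04 (adjusted p = 0.281 in edgeR). Glo1 was at -0.04 (SE 0.0440, adjusted p = 0.468 in edgeR) and Mdga1 at 0.09 (SE 0.129, adjusted p = 0.540 in edgeR), which turned to -0.06 without libraries 19 and 26. In the fit of all genes with a count, of which 21.7% were called higher and 20.1% lower in striatum, Glp1r was higher by 1.45 (SE 0.371, adjusted p = 0.00152 in edgeR) and by 0.96 without libraries 19 and 26 (adjusted p = 0.00389 in edgeR). Dnah8 was at -0.19 (SE 0.154, adjusted p = 0.339 in edgeR).

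The region by genotype term, the log2 fold change for genotype in striatum less that in frontal cortex, is built from the differences that the genes were chosen on and is given without a test. It was -0.05 for Glo1 (SE 0.0892) and -0.05 for Btbd9 (SE 0.0716). For Zfand3 it was -0.09 (SE 0.0401), for Mdga1 -0.12 (SE 0.263) and for Abcg1 0.12 (SE 0.0682). For Dnah8 the term was -0.46 (SE 0.306) and for Glp1r 0.77 (SE 0.772) in the fit of all genes with a count.

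Around the members, the other genes of chromosome 17 that begin within 5 Mb of Glo1 had a median genotype difference close to 0. In frontal cortex 183 of the 319 such genes passed the filter, and 0 were called higher and 1 lower by edgeR (20 at an unadjusted p under 0.05, and 3 called by DESeq2), with a median log2 fold change of 0.002 against 0.0007 for all genes. Over all genes tested in frontal cortex, 0.380% were called by edgeR, 13.5% had an unadjusted p under 0.05 and 1.84% were called by DESeq2. The called gene was Notch3, which encodes a Notch receptor of vascular mural cells and lies 1.53 Mb away, with 23.2 ± 1.77 CPM (SD, n = 6) in wild-type and 19.7 ± 0.965 CPM (SD, n = 6) in Igf2enh-/- libraries. Its log2 fold change was -0.24 (SE 0.0479, adjusted p = 0.0497 in edgeR), and the call was lost in all 12 fits that left out a library, with adjusted p from 0.0535 to 0.115 in edgeR. In striatum 180 passed and 0 were called by edgeR (22 at an unadjusted p under 0.05, and Brd2, Dusp1 and Notch3 called by DESeq2), with a median of -0.026 against 0.0004 for all genes, and Notch3 had a log2 fold change of -0.28 (SE 0.0730, adjusted p = 0.224 in edgeR). The shares over all genes in striatum were 0.0360% by edgeR, 10.0% at an unadjusted p under 0.05 and 0.808% by DESeq2. In frontal cortex 98 of the 183 genes had a log2 fold change above 0 and 85 below. In striatum 63 of the 180 lay above 0 and 117 below, a lean that was not tested. Within 2 Mb, 35 genes were tested in frontal cortex and 37 in striatum, with medians of -0.0005 and -0.003. Of them 9 and 3 had an unadjusted p under 0.05 in edgeR, against 13.5% and 10.0% of all genes. Whether the larger share in frontal cortex goes beyond the background was not tested.

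The nearest tested genes outside the members bound the stretch. Ccdc167, which ends 498 kb before Btbd9, had log2 fold changes of 0.07 (SE 0.0735, adjusted p = 0.733 in edgeR) and 0.04 (SE 0.0492, adjusted p = 0.841 in edgeR). Rsph1, a radial spoke gene of motile cilia 319 kb beyond Glp1r, was at 0.22 (SE 0.133, adjusted p = 0.483 in edgeR) and 0.07 (SE 0.237, adjusted p = 0.948 in edgeR). Between them, the flanking members Zfand3 and Abcg1 had log2 fold changes from -0.06 to 0.10, the flanking member Mdga1 had 0.38 and 0.27, and the inner members Btbd9 and Glo1 ran from -1.21 to -0.26. By smallest genotype p in frontal cortex the next neighbours were Fbxl16 (-0.13, adjusted p = 0.0651), Brd2 (-0.12, adjusted p = 0.0871), Aif1 (0.30, adjusted p = 0.136) and Cbs (0.23, adjusted p = 0.136), all in edgeR. In striatum they were Brd2 (-0.14, adjusted p = 0.152), Dusp1 (-0.66, adjusted p = 0.159), Notch3, Pim1 (0.54, adjusted p = 0.266) and 1110038B12Rik (-0.23, adjusted p = 0.268), also in edgeR. None of these passed the threshold in these fits except Notch3 in frontal cortex.

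**Figure D5:**
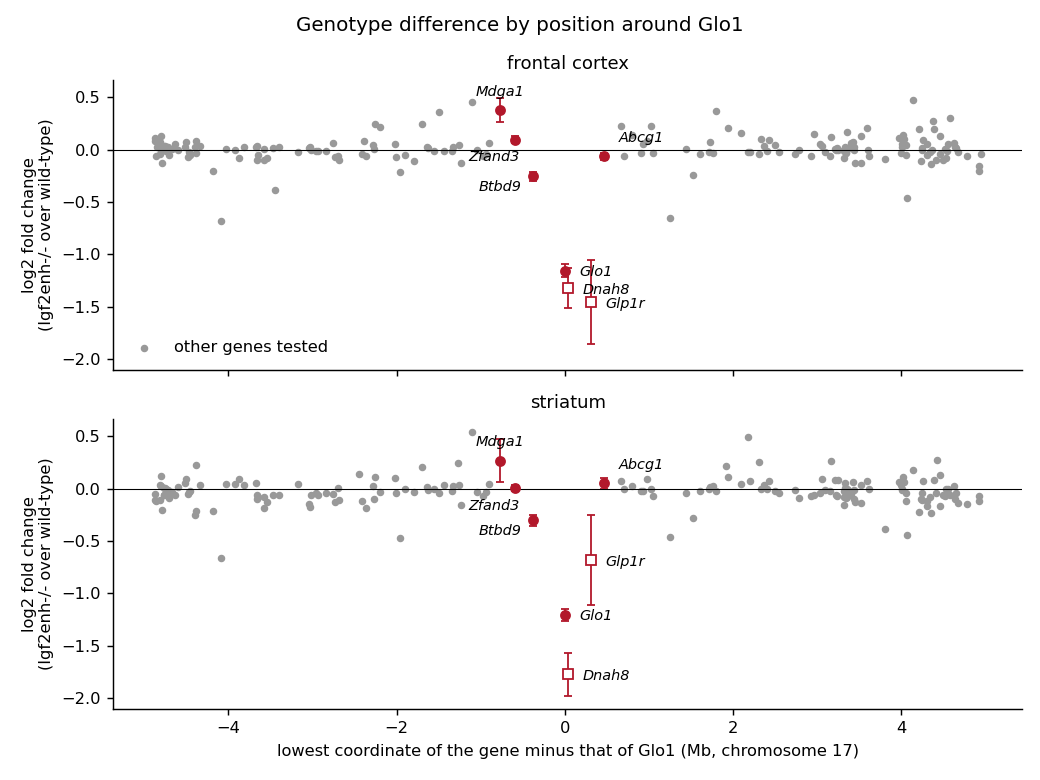
Fitted log2 fold change (Igf2enh-/- over wild-type) of genes within 5 Mb of Glo1 against their distance from it in Mb, for frontal cortex and striatum, with members named and the other tested genes in grey. Glo1 and Dnah8 lie between -1.16 and -1.77, and the grey points reach at most 0.68 in frontal cortex and 0.66 in striatum in absolute value.

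The other genes of methylglyoxal metabolism, from a list of enzymes, glutathione genes and glycolytic sources, had no genotype call. Of 33 genes 30 were tested in each region, and 0 were called in either by edgeR, its likelihood ratio test or DESeq2 (2 in frontal cortex and 4 in striatum at an unadjusted p under 0.05 in edgeR, against 13.5% and 10.0% of all genes). The medians were -0.009 in frontal cortex and -0.016 in striatum, against 0.0007 and 0.0004 for all genes. Hagh, the second glyoxalase, had 58.5 ± 1.74 CPM (SD, n = 6) in wild-type and 60.3 ± 3.29 CPM (SD, n = 6) in Igf2enh-/- frontal cortex, with log2 fold changes of 0.04 (SE 0.0385, adjusted p = 0.668 in edgeR) and -0.02 in striatum (SE 0.0335, adjusted p = 0.880 in edgeR). Akr1b3, an aldose reductase that reduces methylglyoxal, was at -0.02 in both regions (SE 0.0592 and 0.0513, adjusted p = 0.938 and 0.943 in edgeR). Park7, which encodes DJ-1, was at 0.03 (SE 0.0358, adjusted p = 0.752 in edgeR) and -0.12 (SE 0.0334, adjusted p = 0.278 in edgeR). Ager, the receptor for advanced glycation end products, stayed under the filter, with 0.453 ± 0.110 (SD, n = 6) and 0.456 ± 0.142 CPM (SD, n = 6) in wild-type and Igf2enh-/- frontal cortex and 0.671 ± 0.140 (SD, n = 7) and 0.631 ± 0.161 CPM (SD, n = 8) in striatum.

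By smallest genotype p, the listed genes in addition were Aldh9a1, an aldehyde dehydrogenase (0.20, SE 0.0614, adjusted p = 0.179 in frontal cortex in edgeR), the mitochondrial aldehyde dehydrogenase gene Aldh2 (0.11, SE 0.0438, adjusted p = 0.290) and the aldehyde reductase gene Akr1a1 (-0.06, SE 0.0297, adjusted p = 0.387). In striatum Aldh2 was at 0.11 (SE 0.0431, adjusted p = 0.394 in edgeR) and Akr1a1 at -0.10 (SE 0.0389, adjusted p = 0.434 in edgeR). Between regions 5 of the 30 were called higher and 18 lower in striatum, against 39.4% and 38.3% of all genes. Among the lower was Hagh, which was lower with a difference of -0.12 (SE 0.0247, adjusted p = 9.61e-05 in edgeR), where Glo1 was not called.

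Genes whose pattern across the 27 libraries was most like that of Glo1 were named by Pearson's r of log2 level among 13413 genes. These reached 1 CPM in all 27 libraries, so Dnah8, with 0.93 once the mean of each region was taken off, was not ranked. With the mean of each region taken off, so that genotype stayed in, they were Ciart, a repressor of the circadian clock (0.90), Btbd9 (0.89), the cold-inducible RNA-binding protein gene Rbm3 (0.85), Eml2 (0.83) and Brd2 (0.81), and on the negative side Abca8a (-0.84), the disulfide isomerase genes Pdia3 (-0.81) and Pdia6 (-0.81), Plvap (-0.79) and Rpn1 (-0.79). Btbd9 ranked 2 in that order. Ciart had 19.8 ± 4.25 CPM (SD, n = 6) in wild-type and 8.39 ± 1.27 CPM (SD, n = 6) in Igf2enh-/- frontal cortex.

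With the mean of each region and genotype taken off, so that only the spread inside groups stayed, the genes were Dazap1 (0.73), Tatdn3 (0.71), Cntrob (0.68), Csad (0.68) and Jun (0.68), and on the negative side Hdac2 (-0.70), Fam229b (-0.69), Gorab (-0.68), Gtf3c6 (-0.68) and Hs3st5 (-0.66). Btbd9 ranked 14 there with 0.61. Among wild-type libraries Dazap1 was highest in library 4 of frontal cortex (51.5 CPM) and library 16 of striatum (57.1 CPM), both above the step in Glo1. Its choice as the gene most like Glo1 makes this likely. Of the 5 negative genes, 4 lie on chromosome 10 between 36506590 and 40257712. The share of all ranked genes in that stretch was not counted, so nothing is read from this. These values share libraries and depth, and no p is given.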

How the data were processed

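Whole-tissue RNA from frontal cortex and striatum was prepared with ribosomal RNA depletion and sequenced as 75 bp single-end reads on 3 flow cells. Per the labels and the submitters' processing notes, reads were demultiplexed with bcl2fastq 1.9.0, trimmed with Trim Galore 0.5.0 and aligned with STAR to GRCm38 with the GENCODE vM15 annotation. The counting tool and its strand setting are not given in the sources used here, so reads of overlapping genes, antisense genes and the pseudogene within Glo1 cannot be told apart. The authors deposited raw counts per gene without normalization. The tables held 0 columns of other series. The series text gives other group sizes than the labels, which were followed.

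Members and lists were chosen with earlier results of these data known. Genes that reached 1 CPM in all libraries of a fit (5 of the 7 members) were normalized by TMM and tested with edgeR 4.0.16 in R 4.3.3 by its quasi-likelihood F-test, with genotype and sex as terms (region, genotype and sex over all 27 libraries, treated as independent) and Benjamini-Hochberg adjustment at 0.05. Dnah8 and Glp1r were fitted with all genes that had a count. SE values come from the log2 fold change and its F statistic. The test was checked on simulated counts with a dispersion common to all genes and planted changes about as large as that of Glo1. That check does not cover smaller differences or genes of unlike dispersion. Of 52636 identifiers, 32688 had a symbol and 25980 a GRCm38 position from RefSeq. Exon lengths are merged exons of GENCODE vM1. Counting intervals are exact binomial intervals at 95% for the count of a gene out of the library total. Likeness used log2 of CPM with 0.5 added, and only genes at 1 CPM or more in all 27 libraries were ranked by it.

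Genes named are the members, the neighbours called for genotype or nearest to the stretch from Btbd9 to Glp1r, the 5 neighbours of smallest p per region, Hagh, Akr1b3, Park7 and Ager with up to 3 listed genes of smallest p per region, and the 5 genes most like Glo1 under each measure and sign. Umodl1, Zic1, Trpc4, the cell type markers and the relatives of Glp1r are given as levels only. Alternatives were edgeR's likelihood ratio test (the test of the study), DESeq2 1.42.0, other scalings and filters, no sex term, a term for striatal libraries numbered 21 and above, wild-type libraries only, a 2 Mb window and leaving out each library. Leaving out libraries 19 and 26 together was added after their values were seen. Python 3.11.15 with matplotlib 3.10.9 was used for the plots.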

Additional observations from a re-analysis of the deposited data

Results flagged for a closer look

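Of the values of the 7 members in the 4 groups, 3 had a library that lay far from the others by Dixon's test at the 95% level. Chance alone marks about 1 in 20 groups.

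Glp1r in wild-type striatum reached 2.54 CPM in library 26, with the next library at 0.990 CPM. The gap was 0.673 of the group's range, over the critical value for 7 libraries. Glp1r in Igf2enh-/- striatum reached 1.90 CPM in library 19, with the next at 0.539 CPM and a gap of 0.816 of the range, over the critical value for 8 libraries. Mdga1 in Igf2enh-/- striatum reached 38.4 CPM in library 19 as well, with the next at 24.1 CPM and a gap of 0.693 of the range. Both libraries had the highest Zic1 and Trpc4 of all striatal libraries. Glo1 in them was 100 CPM (library 26) and 40.1 CPM (library 19), inside the range of their groups.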

How the results depend on the processing

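Glo1 and Btbd9 kept the direction of their genotype difference in both regions in every fit run, and Dnah8 in the fits that kept it, and no result changed sign past the threshold. The number of genes called for genotype did depend on the fit. In frontal cortex the 53 genes became 232 with edgeR's likelihood ratio test, 247 with DESeq2 and 459 without a filter, and 8 to 99 when a library was left out, with fewer without libraries 4, 6, 8, 9, 10, 11 and 12 and more without 1 and 7. In striatum the 5 genes became 56, 112 and 10 in the same fits, 13 with filterByExpr, 3 without the sex term, 3 without libraries 19 and 26, and 3 to 8 when a library was left out (3 without 18, 19, 21, 24, 25 or 27, and 8 without 23). Of the genes within 5 Mb of Glo1 that are not members, edgeR called 1 of 183 in frontal cortex. There its likelihood ratio test and DESeq2 each called 3 of 183, and with filterByExpr 2 of 216 were called. Without a filter, 13 of 296 were called there, and 5 of 55 within 2 Mb. In striatum the calls were 0 of 180, 1 of 180 with the likelihood ratio test and 3 of 180 with DESeq2. They were 0 of 218 with filterByExpr and 0 of 297 without a filter. Over all genes tested, edgeR called 0.380% in frontal cortex and 0.0360% in striatum, and DESeq2 1.84% and 0.808%. Members are left out of these counts because they were chosen on this contrast. The 459 called in frontal cortex without a filter came from 13936 genes at 1 CPM or more and 19124 with a count but below it. The causes were not tested. The call of Notch3 in frontal cortex was lost with scaling by total count (adjusted p = 0.0514 in edgeR) and without the sex term (0.0697). The region call of Zfand3 was lost in wild-type libraries alone. No paired analysis of the regions was possible because the sources do not say which frontal cortex and striatal libraries share a mouse. Depth limits Dnah8 and Glp1r, which had at most 76 and 87 counts in a library.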

Other observations

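Hdac2, which encodes a histone deacetylase, and Gtf3c6, which encodes a subunit of transcription factor IIIC, are 2 of the chromosome 10 genes that were least like Glo1 within the groups, and were picked out after their values were seen. In frontal cortex Hdac2 had 125–135 CPM in wild-type libraries 8, 10 and 12, all male, and 77.3–88.8 CPM in the other 9 libraries. In striatum it had 129, 160 and 157 CPM in wild-type male libraries 20, 22 and 24 and 97.1–107 CPM in the other 12, which include wild-type male library 26. Gtf3c6 had 26.2–28.4 CPM in libraries 8, 10 and 12 and 26.5–28.4 CPM in libraries 20, 22 and 24, against 17.5–20.4 CPM in all others. None of these 6 libraries was among those above the step in Glo1, and wild-type female libraries 2 and 14 were low for both Glo1 and these genes. Of the other chromosome 10 genes on that list, Fam229b parted the same libraries in both regions, but Hs3st5 did so in frontal cortex only. In striatum Hs3st5 had 14.2 CPM in library 20, against 12.5–19.5 CPM in Igf2enh-/- libraries and 20.8 CPM in wild-type female library 14.

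Ciart was lower in every Igf2enh-/- library (6.71–9.87 CPM in frontal cortex and 7.08–11.4 CPM in striatum) than in every wild-type library of its region (14.2–25.8 and 15.5–25.2 CPM). Among genes at 1 CPM or more in all 27 libraries, it was picked as the most like Glo1 with genotype left in. That makes such a separation likely. Of genes at 1 CPM or more, 0.631% were separated in this direction in frontal cortex and 0.130% in striatum.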
